A study of Mus musculus with 96 samples.

Results

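Txnip, Arrdc4, Arrdc3, Mlxip and Mlx are the 5 rows described here, of 54150 rows in the count table (54146 mouse genes and 4 transgenes). They were taken by gene name, from a set of names drawn up with earlier results of these data known. C2C12 is a mouse myoblast cell line that stops dividing and fuses into myotubes in low-serum media. RNA from these cells was sequenced in 96 samples under 35 conditions, most of them 10 hr treatments with inhibitors of mitochondrial respiration. The question posed to these genes is how a glucose-responsive pair of genes and its regulators behave when oxidative phosphorylation is blocked, relieved of NADH, uncoupled or run at low oxygen. Every medium was made up to 10 mM glucose, so the starting concentration was not varied. The glucose left in the wells during treatment is not part of these data.

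Dividing myoblasts were grown in 10% dialyzed fetal bovine serum and carried a lentiviral transgene switched on by 300 ng/ml doxycycline. The transgene was luciferase in the control myoblasts, LbNOX (a bacterial enzyme that oxidizes NADH in the cytosol), mitoLbNOX (the same enzyme sent to the mitochondrial matrix) or NDI1 (a yeast NADH dehydrogenase that passes electrons around complex I). They received DMSO or one of 3 inhibitors for 10 hr, namely 0.5 µM piericidin (complex I), 0.5 µM antimycin (complex III) or 1 µM oligomycin (ATP synthase). MitoLbNOX cells had no oligomycin group and NDI1 cells had piericidin alone. Control and LbNOX myoblasts also received DMSO or 20 µg/ml chloramphenicol, which blocks mitochondrial translation, for 48 hr, in media with uridine and at a sparser seeding. Post-mitotic cells had spent 24 hr and myotubes 4 days in 2% dialyzed horse serum, and both were untransduced unless named otherwise. Some myotubes carried an adenovirus with GFP, or with LbNOX and eGFP together. Myotubes were also given 0.5 µM BAM15 (an uncoupler that carries protons across the inner membrane), oligomycin with BAM15, oligomycin with piericidin, or 5% oxygen from the night before treatment, with DMSO or oligomycin. There were 3 samples per condition, except 2 in the NDI1, 48 hr and GFP conditions. The labels number these samples but do not say that they came from separate cultures, so p-values measure the spread between these samples, which may be technical.

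Totals ran from 6458295 to 15366745 counts per sample. Transgenes were counted solely in the samples labelled with them, at 372 counts or more. All 5 myotube markers rose from control myoblasts to post-mitotic cells and to myotubes, with Ckm, the muscle creatine kinase, higher by 11.25 and 11.22 on the log2 scale. Adipocyte and osteoblast markers stayed at 0 to 14 counts in every library, and 0 of 5 reached the count filter. Of the 5 genes described here, 4 passed the count filter of at least 16 counts in every replicate of some condition in each of the 5 models fitted. Arrdc4 passed in none and is given as counts.

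MondoA, the product of Mlxip, forms a dimer with MLX, the product of Mlx. The pair waits at the outer surface of mitochondria and in the cytosol, moves to the nucleus when glucose 6-phosphate accumulates, and switches on genes through paired E-box-like sites called carbohydrate response elements. Txnip is the best known of these target genes. Its product, the alpha-arrestin TXNIP, draws glucose transporters off the cell surface and binds thioredoxin, so that the pathway acts as a brake on glucose uptake. Arrdc4 encodes a related alpha-arrestin that is also a MondoA target and also lowers glucose uptake, and Arrdc3 encodes an alpha-arrestin known for regulating beta-adrenergic receptors and energy expenditure. In muscle, a tissue that takes up much of the glucose after a meal, TXNIP is known for responding quickly to changes in glycolysis and respiration.

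The 250 bases before the RefSeq start of each alpha-arrestin gene are printed because the response element through which MondoA and MLX act on Txnip lies in this stretch. Capitals mark matches to the 3 patterns searched on both strands, the E-box CACGTG, the E-box-like CACGAG, and a pair made of CANGNG and CNCGNG with 5 bases between them. A pair can contain a CACGAG, so these matches can overlap. The sequences are from RefSeq on GRCm38.p6, written 5′ to 3′ on the strand of the gene. They are chr3:96557707-96557956 (plus strand) for Txnip, chr7:68749239-68749488 (minus strand) for Arrdc4 and chr13:80883134-80883383 (plus strand) for the first of 3 Arrdc3 starts.
Txnip: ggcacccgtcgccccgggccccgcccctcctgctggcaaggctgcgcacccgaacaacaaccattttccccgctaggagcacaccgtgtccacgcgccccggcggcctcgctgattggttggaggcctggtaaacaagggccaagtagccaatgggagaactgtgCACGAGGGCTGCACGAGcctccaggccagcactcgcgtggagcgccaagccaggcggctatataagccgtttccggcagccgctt
Arrdc4: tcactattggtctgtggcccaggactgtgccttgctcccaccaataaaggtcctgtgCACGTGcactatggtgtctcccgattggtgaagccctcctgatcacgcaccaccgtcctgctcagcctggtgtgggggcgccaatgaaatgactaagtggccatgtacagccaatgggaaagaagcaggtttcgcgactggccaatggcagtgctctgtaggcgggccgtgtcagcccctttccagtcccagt
Arrdc3: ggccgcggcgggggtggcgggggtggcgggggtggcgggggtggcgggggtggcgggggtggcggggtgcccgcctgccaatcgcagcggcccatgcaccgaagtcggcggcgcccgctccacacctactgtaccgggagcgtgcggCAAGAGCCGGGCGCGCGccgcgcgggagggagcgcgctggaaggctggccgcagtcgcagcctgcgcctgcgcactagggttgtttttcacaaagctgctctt
The Txnip stretch held a pair from -85 to -69, counted backward from the start, both of whose sites read CACGAG. Arrdc4 held one CACGTG at -193 to -188 and no pair in this window. Arrdc3 held a pair at -103 to -87 that matched the looser pattern and read neither CACGTG nor CACGAG. Mlx held one CACGTG at -40 to -35, and Mlxip held no match. Over all 32851 promoter windows of 300 bases, 1.32% held such a pair, 6.47% held CACGAG and 7.15% held CACGTG, so these matches describe the letters of the windows and are not binding sites measured here.

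In the mouse annotation (GENCODE M21, GRCm38), Txnip is a protein-coding gene on chromosome 3 from 96557957 to 96561883 on the plus strand. Its whole length is covered by the antisense gene Gm15441 on the opposite strand. The libraries were not strand-specific, so reads of both genes cannot be told apart by strand, and the table lists Gm15441 at 0 to 3 counts in all 96 libraries. Arrdc4 lies on chromosome 7 from 68736995 to 68749241 (minus strand), Arrdc3 on chromosome 13 from 80883384 to 80896042 (plus strand), Mlxip on chromosome 5 from 123394798 to 123457932 (plus strand) and Mlx on chromosome 11 from 101087277 to 101092207 (plus strand). The last 385 bases of Mlx overlap Psmc3ip, a protein-coding gene on the opposite strand that was listed at 22 to 273 counts. Arrdc3 and Mlxip overlap minor transcripts listed at 16 counts or fewer in every library.

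Levels are given below as normalized CPM, a gene's count relative to the total of its library after that total was scaled by the trimmed mean of M-values over all 96 samples. Between genes they are compared only per kb of exon. In DMSO-treated control myoblasts Mlx stood at 23.8 CPM per kb, Arrdc3 at 2.77, Txnip at 1.09, Mlxip at 1.08 and Arrdc4 at 0.0323. In DMSO-treated untransduced myotubes Mlx stood at 20.3 CPM per kb, Txnip at 7.34, Arrdc3 at 4.58, Mlxip at 1.50 and Arrdc4 at 0.117. Txnip therefore stood below Arrdc3 per kb in the myoblasts and above it in the myotubes.

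Txnip had the widest range of the 4 tested genes. Its condition means ran from 0.612 CPM in antimycin-treated control myoblasts to 56.4 CPM in myotubes at 5% oxygen, a 92.3-fold span, against 13.2-fold for Arrdc3, 2.18-fold for Mlx and 2.04-fold for Mlxip. The order of its 35 conditions split at 2 places where neighbors did not overlap in a way that separated whole sets of conditions. The 4 highest conditions, from 40.5 to 58.4 CPM in their 12 samples, were the myotubes at 5% oxygen and those with BAM15, each with or without oligomycin. All other myotubes and post-mitotic cells followed at 11.7 to 32.2 CPM, and all 17 myoblast conditions lay at 0.231 to 6.62 CPM. Within each of these sets nearly every neighbor in the order overlapped the next, the exception being NDI1 myoblasts with piericidin above LbNOX myoblasts with chloramphenicol.

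**Figure D1:**
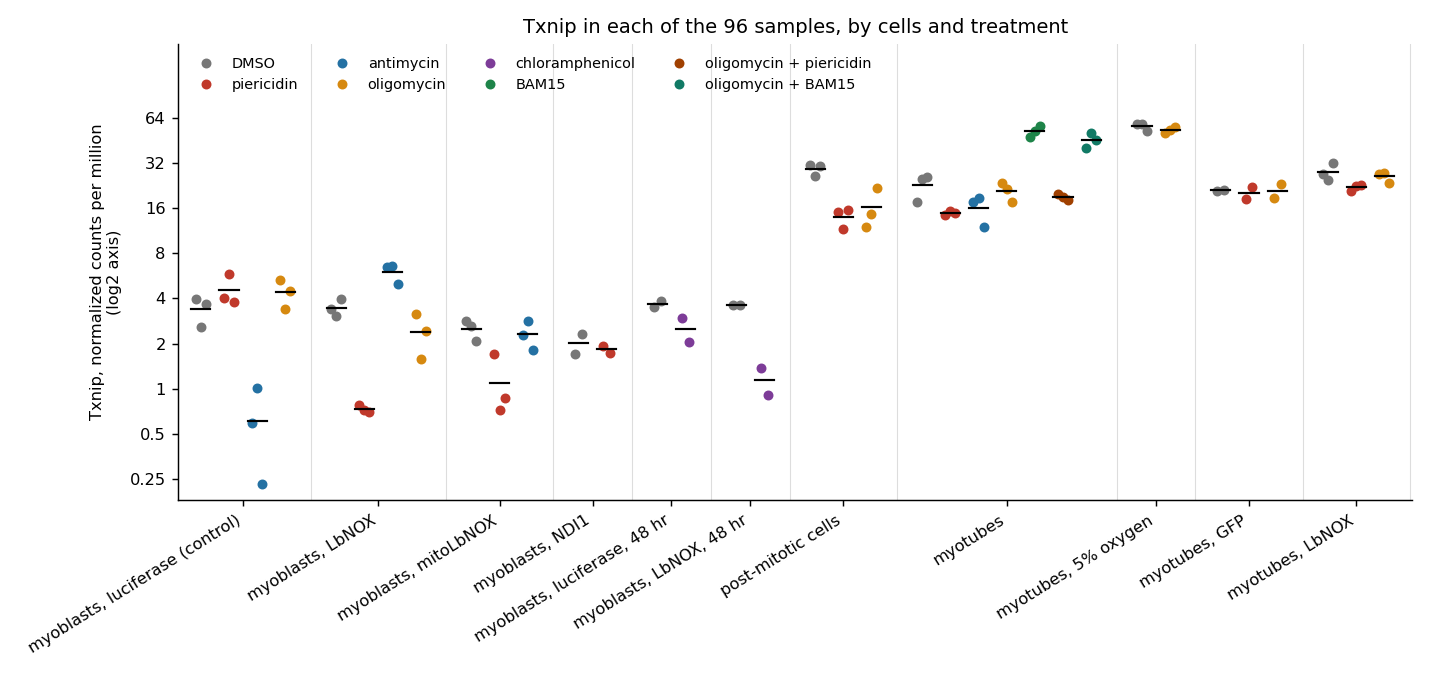
Txnip in CPM on a log2 axis, by cells (horizontal axis) and treatment (color), with 1 point per sample and a bar at the mean of each condition. Myoblast samples reach at most 6.62 CPM and the post-mitotic and myotube samples start at 11.7 CPM, antimycin-treated control myoblasts have the lowest mean (0.612 CPM), and the BAM15 and 5% oxygen myotubes stand highest.

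Txnip rose with differentiation. Control myoblasts with DMSO held 3.95, 2.56 and 3.67 CPM in their 3 samples, from 43, 37 and 40 counts. Post-mitotic cells with DMSO held 31.0, 26.4 and 30.7 CPM, and untransduced myotubes held 17.7, 25.2 and 25.9 CPM. All samples of both low-serum states were above every myoblast sample. By edgeR's quasi-likelihood test, Txnip was 8.62-fold higher in post-mitotic cells (log2 3.11 ± 0.24 SE, adjusted p = 1.95e-12) and 6.81-fold higher in myotubes (log2 2.77 ± 0.24, adjusted p = 2.36e-11). These comparisons called 63.6% and 69.4% of all tested genes, respectively, and 2 of the 4 tested members in the first and 3 in the second, so a call there sets none of them apart. Between myotubes and post-mitotic cells Txnip differed by -0.34 ± 0.20 (adjusted p = 0.194), with 35.6% of tested genes called, and this difference turned to 0.01 when outer wells of the plate had a term of their own. It passed the threshold when the fit held only the groups compared. All 9 post-mitotic libraries were in outer wells and 0 of 3 DMSO-treated myotube libraries were, so state and well position cannot be fully told apart here. Serum, transduction and doxycycline also differed between the myoblasts and the other states, so differentiation cannot be told apart from them. In bulk samples, a change in the kinds of cells present and a change in RNA per cell cannot be told apart either.

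In control myoblasts only antimycin lowered Txnip. Under antimycin the 3 samples held 0.592, 1.01 and 0.231 CPM, from 6, 9 and 2 counts, all below the lowest DMSO sample. The change was -2.41 ± 0.37 on the log2 scale (adjusted p = 1.43e-06), that is 0.188 of the DMSO level, from 17 counts in all against 120. Piericidin-treated samples held 4.06, 5.86 and 3.78 CPM and oligomycin-treated samples 5.28, 3.41 and 4.49 CPM, ranges that overlapped that of DMSO. Neither passed the test, at 0.46 ± 0.29 for piericidin (adjusted p = 0.17) and 0.39 ± 0.29 for oligomycin (adjusted p = 0.273). Antimycin also differed from the other inhibitors directly, by -2.87 ± 0.37 from piericidin (adjusted p = 1.98e-07) and by -2.80 ± 0.36 from oligomycin (adjusted p = 1.67e-07), whereas piericidin and oligomycin differed by 0.07 ± 0.29 (adjusted p = 0.867). The inhibitors moved much of the transcriptome in these cells, and piericidin called 61.7%, antimycin 63.2% and oligomycin 50.8% of the tested genes against DMSO, for 2, 4 and 0 of the 4 tested members. The comparisons between inhibitors called 37.2% (antimycin against piericidin), 50% (antimycin against oligomycin) and 39.2% (piericidin against oligomycin), with 2, 2 and 1 members. All 3 proliferation markers fell with antimycin in these cells, and Mki67 changed by -1.07, against -0.79 under piericidin and -0.999 under oligomycin. Their part in the Txnip result was not tested.

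In LbNOX myoblasts Txnip fell with piericidin and rose with antimycin. Under DMSO, LbNOX myoblasts held 3.40, 3.04 and 3.99 CPM of Txnip, and differed from control myoblasts by 0.04 ± 0.29 (adjusted p = 0.978), with 2.66% of genes and 0 members called. With piericidin they held 0.782, 0.719 and 0.694 CPM, from 8, 6 and 8 counts, all far below their DMSO samples. That fall, -2.22 ± 0.35 (adjusted p = 5.21e-05), came in a comparison that called only 8.87% of tested genes and 2 of the 4 members. With antimycin they instead held 6.45, 6.62 and 4.98 CPM, all above their DMSO samples, a rise of 0.81 ± 0.29 (adjusted p = 0.0212) in a comparison that called 46.1% of genes and 2 members. The rise lost its call when LbNOX antimycin sample 1 or 2 or LbNOX DMSO sample 1 or 2 was left out, with values from 0.71 to 0.93 over the samples left out. The call was also lost with no count filter. With oligomycin they held 3.16, 1.57 and 2.43 CPM, a difference of -0.52 ± 0.30 that did not pass (adjusted p = 0.199, 35.2% of genes and 0 members called).

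The responses of LbNOX and control myoblasts were compared by an interaction term. With LbNOX minus control, the piericidin response of Txnip differed by -2.68 ± 0.46 (adjusted p = 1.62e-05, 44.3% of genes and 3 members called), and the antimycin response by 3.22 ± 0.47 (adjusted p = 1.05e-06, 51.5% and 2 members). The oligomycin responses differed by -0.91 ± 0.42, which did not pass (adjusted p = 0.214, 7.98% and 0 members). Counts per library were at most 9 in the low groups, so the size of the falls is known only roughly while the samples of the groups did not overlap.

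In mitoLbNOX myoblasts Txnip fell with piericidin and did not change by the test with antimycin. MitoLbNOX myoblasts held 2.84, 2.62 and 2.07 CPM with DMSO, and differed from control myoblasts without passing the test (-0.41 ± 0.30, adjusted p = 0.653, 1.74% of genes and 0 members called). Piericidin lowered this to 1.71, 0.718 and 0.866 CPM, a change of -1.20 ± 0.33 (adjusted p = 0.0147, 11.2% and 1 member). That call was lost without mitoLbNOX DMSO sample 1 or piericidin sample 2 or 3. It was also lost with no count filter, with only the groups compared and with a term for outer wells, where the change was -1.03. With antimycin the samples held 2.30, 2.81 and 1.81 CPM, overlapping DMSO (-0.12 ± 0.31, adjusted p = 0.776, 47.7% and 2 members). Against control myoblasts the piericidin response differed by -1.66 ± 0.44 (adjusted p = 0.00283, 42.9% and 3 members), and the antimycin response by 2.29 ± 0.49 (adjusted p = 0.000508, 31.7% and 1 member).

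NDI1 myoblasts, in which complex I is bypassed, showed no called Txnip response to piericidin. They held 1.72 and 2.33 CPM with DMSO and 1.92 and 1.74 CPM with piericidin, which differed by -0.13 ± 0.39 (adjusted p = 0.951). Over all genes this comparison called 1 of 11978 tested, or 0.00835%, by edgeR with 1004 genes at an unadjusted p under 0.05 and 6 called by DESeq2. Their DMSO samples did not differ from control myoblasts by the test (-0.74 ± 0.34, adjusted p = 0.291, 4.58% and 0 members), although both lay below all 3 control samples. Their piericidin response differed from that of control myoblasts by -0.59 ± 0.49 (adjusted p = 0.353, 42.7% and 1 member).

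Chloramphenicol for 48 hr lowered the Txnip readings of LbNOX myoblasts without passing the test. In control myoblasts DMSO gave 3.50 and 3.83 CPM and chloramphenicol 2.96 and 2.05 CPM, both lower, a difference of -0.51 ± 0.33 (adjusted p = 0.412, 8.45% of genes and 1 member called). In LbNOX myoblasts DMSO gave 3.61 and 3.62 CPM and chloramphenicol 1.37 and 0.908 CPM. That difference was -1.64 ± 0.37 (adjusted p = 0.115), in a comparison that called 0.931% of genes and 0 members, and it passed (adjusted p = 0.0289) when all genes were tested with no count filter. The responses of both lines differed by -1.13 ± 0.50 (adjusted p = 0.496, 0.530% and 0 members).

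Post-mitotic cells lowered Txnip with either inhibitor tested. Against 31.0, 26.4 and 30.7 CPM with DMSO, piericidin gave 15.1, 11.7 and 15.5 CPM and oligomycin 12.03, 14.7 and 21.99 CPM, without overlap. The changes were -1.06 ± 0.20 (adjusted p = 0.00159) for piericidin, in a comparison that called 3.75% of tested genes and 1 member, and -0.85 ± 0.20 (adjusted p = 0.00248) for oligomycin, with 21.3% and 3 members. Both responses were lower than in control myoblasts, at -1.49 ± 0.34 for piericidin (adjusted p = 0.000718, 46.6% and 3 members), and -1.22 ± 0.34 for oligomycin (adjusted p = 0.00805, 24.9% and 3 members).

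In untransduced myotubes both inhibitors of the electron transport chain lowered Txnip. Piericidin gave 14.5, 15.4 and 14.8 CPM, all below the DMSO samples at 17.7, 25.2 and 25.9 CPM, a change of -0.62 ± 0.15 (adjusted p = 0.00722, 8.99% of genes and 2 members called). Antimycin gave 17.5, 18.7 and 12.1 CPM, overlapping DMSO, a change of -0.48 ± 0.14 (adjusted p = 0.0238, 12.9% and 2 members). The antimycin call was lost without antimycin sample 3, DMSO sample 2 or DMSO sample 3, at -0.33, -0.40 and -0.39, and when the fit held only the groups compared (adjusted p = 0.107). Oligomycin gave 23.6, 21.4 and 17.5 CPM, a difference of -0.12 ± 0.14 that did not pass (adjusted p = 0.539, 33.3% and 1 member). Set against control myoblasts, the piericidin response in myotubes differed by -1.04 ± 0.35 (adjusted p = 0.0141, 46.5% and 3 members), which did not pass without control myoblast DMSO sample 2 (-0.86) or piericidin sample 2 (-0.83). The antimycin response was higher by 1.96 ± 0.46 (adjusted p = 0.000875, 47.9% and 3 members), and the oligomycin responses differed by -0.52 ± 0.34 (adjusted p = 0.268, 29.0% and 1 member).

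The uncoupler and low oxygen raised Txnip in myotubes. BAM15 gave 48.1, 52.5 and 57.0 CPM and 5% oxygen gave 58.4, 58.3 and 52.6 CPM, all above the highest DMSO sample. BAM15 raised Txnip 2.31-fold (log2 1.21 ± 0.13, adjusted p = 2.23e-07, 25.4% of genes and 3 members called) and 5% oxygen 2.51-fold (log2 1.33 ± 0.13, adjusted p = 3.08e-08, 22.1% and 2 members). All 3 proliferation markers fell at 5% oxygen, with Mki67 at -2.61 on the log2 scale (13.1 to 2.10 CPM), whereas with BAM15 none of the 3 passed and Mki67 stood at 9.91 CPM. Their part in the rise at 5% oxygen was not tested.

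With oligomycin added, Txnip still stood above the oligomycin samples under both treatments. Oligomycin with BAM15 gave 40.5, 50.7 and 45.9 CPM, higher than DMSO by 1.01 ± 0.13 (adjusted p = 3.14e-06, 23.2% and 3 members) and than oligomycin alone by 1.14 ± 0.13 (adjusted p = 4e-07, 26.1% and 3 members). Oligomycin at 5% oxygen gave 51.0, 53.3 and 55.8 CPM, higher than oligomycin alone by 1.37 ± 0.13 (adjusted p = 1.27e-08, 33.3% and 1 member). It differed from DMSO at 5% oxygen by -0.08 ± 0.13 (adjusted p = 0.866, 4.26% and 0 members), and the oligomycin response at 5% oxygen differed from that at ambient oxygen by 0.05 ± 0.19 (adjusted p = 0.902, 17.4% and 1 member). Oligomycin with piericidin gave 19.8, 19.2 and 18.05 CPM, which differed from DMSO by -0.26 ± 0.14 (adjusted p = 0.256, 12.8% and 1 member) and from oligomycin alone by -0.14 ± 0.14 (adjusted p = 0.554, 20.9% and 0 members).

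In virus-carrying myotubes no Txnip difference passed the test. GFP myotubes held 20.97 and 21.3 CPM with DMSO, 18.5 and 22.2 CPM with piericidin and 18.7 and 23.4 CPM with oligomycin. LbNOX myotubes held 26.96, 24.6 and 32.2 CPM with DMSO, 20.9, 22.7 and 22.9 CPM with piericidin and 26.9, 27.7 and 23.7 CPM with oligomycin. Only the LbNOX piericidin samples stood apart from their DMSO samples, all below them, at -0.33 ± 0.12 (adjusted p = 0.112, 6.77% of genes and 1 member called). The piericidin difference in GFP myotubes was -0.06 ± 0.15 (adjusted p = 0.91, 3.08% and 0 members), and the oligomycin differences were 0.02 ± 0.15 with GFP (adjusted p = 0.958, 25.8% and 2 members) and -0.08 ± 0.12 with LbNOX (adjusted p = 0.647, 31.8% and 1 member). LbNOX myotubes differed from GFP myotubes under DMSO by 0.40 ± 0.13 (adjusted p = 0.814), where edgeR called 1 of 12395 genes, or 0.00807%, with 749 at an unadjusted p under 0.05 and DESeq2 called 16. For the piericidin and oligomycin responses of LbNOX against GFP myotubes edgeR called 0% of genes, with 569 and 529 at an unadjusted p under 0.05 and 2 and 1 called by DESeq2, and Txnip differed by -0.27 ± 0.19 and -0.10 ± 0.19. The GFP groups held 2 samples each, which limits these comparisons.

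**Figure D2:**
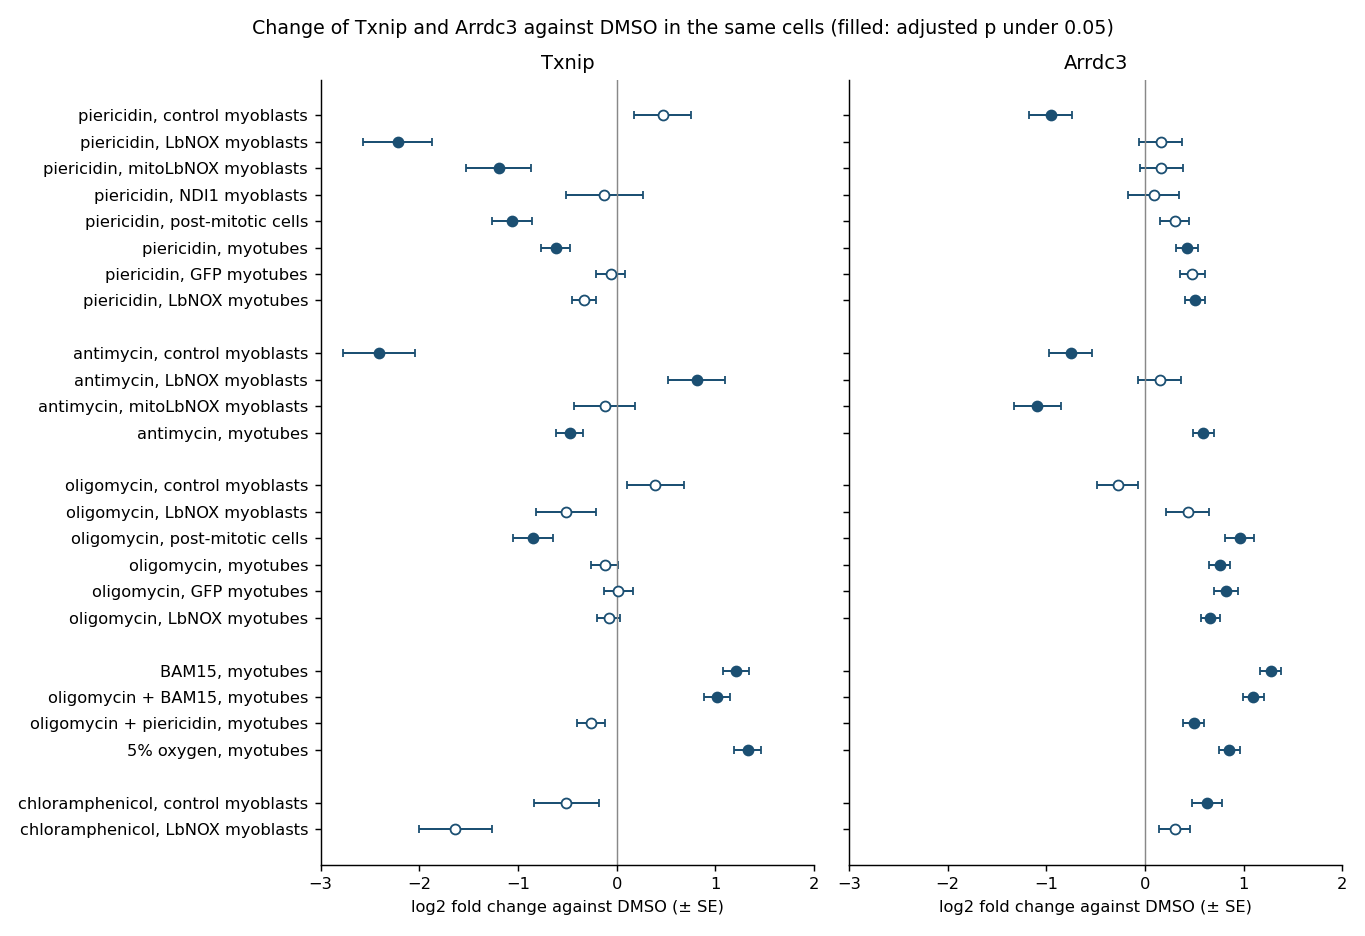
Log2 fold change of Txnip (left) and Arrdc3 (right) against DMSO in the same cells, with standard errors, where filled points have an adjusted p under 0.05. Txnip falls by 2.41 with antimycin in control myoblasts and rises by 0.81 in LbNOX myoblasts, whereas Arrdc3 lies above 0 in every myotube comparison shown.

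Arrdc4, the other known MondoA target among these genes, was barely detected. Its counts were 0 to 6 in the 45 myoblast libraries, where 23 libraries held none, and 0 to 2 in the 9 post-mitotic libraries. In the 42 myotube libraries they were 0 to 18, and 4 libraries held none. Summed over libraries, Arrdc4 had 39 counts in myoblasts, 5 in post-mitotic cells and 214 in myotubes. DMSO-treated untransduced myotubes held 2, 10 and 3 counts, BAM15 1, 1 and 2, and 5% oxygen 5, 18 and 9. In CPM the BAM15 samples, at most 0.201, lay just below the DMSO samples, which began at 0.209, and the 5% oxygen samples overlapped DMSO. LbNOX myotubes held 3, 16 and 9 counts with DMSO and 1, 0 and 1 with piericidin, without overlap (0.952 against 0.0659 CPM on average). The highest condition mean was 1.31 CPM in GFP myotubes with oligomycin, from 17 and 10 counts. No test was made of these counts, which are few in every library.

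Arrdc3 changed in control myoblasts with piericidin and antimycin. In control myoblasts with DMSO it held 17.0, 13.8 and 21.3 CPM. Piericidin gave 9.24, 9.98 and 7.03 CPM and antimycin 7.80, 10.7 and 11.9 CPM, all below DMSO, whereas oligomycin gave 11.98, 18.1 and 12.3 CPM and overlapped it. Arrdc3 fell with piericidin (-0.96 ± 0.22, adjusted p = 0.000456) and antimycin (-0.75 ± 0.22, adjusted p = 0.00376), but not by the test with oligomycin (-0.28 ± 0.21, adjusted p = 0.288). Thus piericidin, which left Txnip without a called change in these cells, lowered Arrdc3 to 0.515 of its DMSO level. It also lay below oligomycin on the log2 scale (-0.68 ± 0.23, adjusted p = 0.0165), a call lost without piericidin sample 3 or oligomycin sample 2.

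In the other myoblast lines Arrdc3 had 1 called change over the 10 hr treatments. In LbNOX myoblasts DMSO gave 12.9, 14.4 and 8.17 CPM, piericidin 15.05, 13.2 and 11.4 CPM and antimycin 15.4, 11.9 and 11.8 CPM, which overlapped. Oligomycin gave 17.9, 15.3 and 14.8 CPM, all above DMSO, a difference of 0.43 ± 0.21 that did not pass (adjusted p = 0.122). Its responses to piericidin and antimycin were higher than in control myoblasts, by 1.11 ± 0.31 (adjusted p = 0.00402) and 0.90 ± 0.31 (adjusted p = 0.0154). The second of these was not called without any one of 4 samples, namely LbNOX antimycin 1, control antimycin 1, LbNOX DMSO 3 or control DMSO 3. MitoLbNOX and NDI1 also gave higher piericidin responses than control, by 1.12 ± 0.31 (adjusted p = 0.00399) and 1.05 ± 0.34 (adjusted p = 0.0136), the latter not called without NDI1 piericidin sample 2. With antimycin, however, mitoLbNOX myoblasts dropped from 9.47, 12.1 and 12.1 CPM to 7.12, 3.68 and 4.86 CPM, a change of -1.09 ± 0.24 (adjusted p = 0.000336). Chloramphenicol raised Arrdc3 in control myoblasts from 12.8 and 12.3 CPM to 19.1 and 18.6 CPM (0.63 ± 0.15, adjusted p = 0.0367), a call lost in all 4 sample omissions, in DESeq2 (adjusted p = 0.0905) and in 4 other settings. In LbNOX myoblasts the chloramphenicol difference was 0.30 (adjusted p = 0.443). The responses of both lines differed by -0.32 (adjusted p = 0.686), and neither value passed.

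In untransduced myotubes all 7 treatments compared with DMSO raised Arrdc3. These 7 comparisons share the same DMSO samples, and 4.15% to 16.9% of all tested genes were higher in them. DMSO gave 27.1, 28.6 and 30.3 CPM, and the lowest sample of the 8 other untransduced myotube conditions was 37.3 CPM. Against DMSO, piericidin raised it by 0.43 ± 0.11 (adjusted p = 0.0131), antimycin by 0.59 ± 0.11 (adjusted p = 0.000381) and oligomycin by 0.76 ± 0.11 (adjusted p = 4.46e-06). They were 1.28 ± 0.11 with BAM15, which gave 62.5, 71.8 and 71.7 CPM, 0.86 ± 0.11 at 5% oxygen, which gave 48.5, 52.8 and 51.1 CPM, 1.099 ± 0.11 with oligomycin and BAM15 and 0.50 ± 0.11 with oligomycin and piericidin, with adjusted p from 1.67e-09 to 0.00245. The piericidin rise was not called without DMSO sample 1 or piericidin sample 1. At 5% oxygen oligomycin gave no further rise (0.02 ± 0.10, adjusted p = 0.968), and its response there differed from that at ambient oxygen by -0.74 ± 0.15 (adjusted p = 0.000815).

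Virus-carrying myotubes and post-mitotic cells also raised Arrdc3 with oligomycin. GFP myotubes rose from 27.9 and 27.2 CPM to 46.1 and 49.98 CPM (0.82 ± 0.12, adjusted p = 0.000163), LbNOX myotubes from 38.6, 30.6 and 29.1 CPM to 49.1, 53.4 and 51.9 CPM (0.66 ± 0.10, adjusted p = 0.000115) and post-mitotic cells from 26.955, 22.3 and 25.03 CPM to 46.3, 47.5 and 50.2 CPM (0.96 ± 0.15, adjusted p = 1.22e-05). In post-mitotic cells oligomycin therefore moved Txnip and Arrdc3 in opposite directions, each without overlap between groups. LbNOX myotubes with piericidin rose by 0.51 ± 0.10 (adjusted p = 0.0067) and GFP myotubes by 0.48 ± 0.12, short of the threshold (adjusted p = 0.0521) but called by DESeq2 (0.0339), with no count filter (0.0106) and with the outer-well term (0.0384). In post-mitotic cells piericidin gave 34.7, 27.3 and 29.5 CPM, a difference of 0.30 that did not pass (adjusted p = 0.346). All 5 Arrdc3 responses tested against control myoblasts, in post-mitotic cells and myotubes, were higher, by 1.03 to 1.43 on the log2 scale. These 5 terms share control myoblast libraries, where Arrdc3 fell with piericidin and antimycin. Over all tested genes, 14.9% to 25.4% were higher in these terms. Across states, Arrdc3 was higher than in control myoblasts by 0.50 ± 0.16 in post-mitotic cells (adjusted p = 0.00645, not called without control DMSO sample 2, at 0.35) and by 0.73 ± 0.16 in myotubes (adjusted p = 0.000155).

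**Figure D3:**
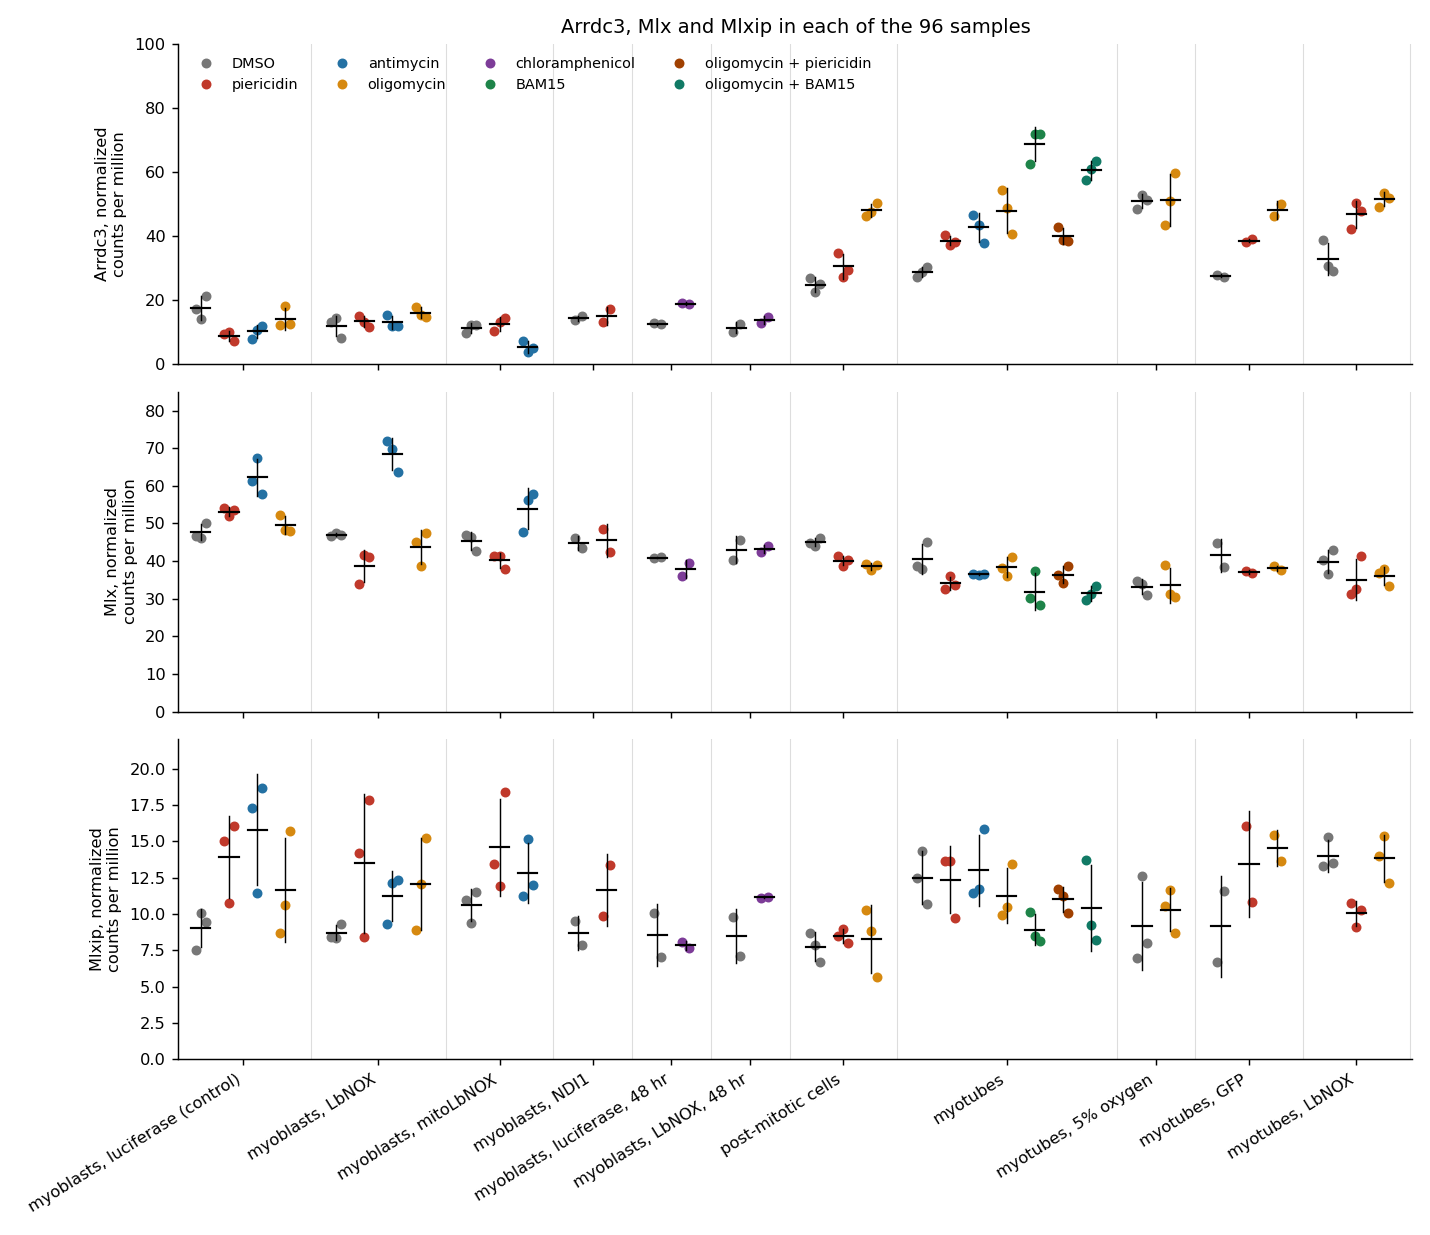
Arrdc3, Mlx and Mlxip in CPM, by cells (horizontal axis) and treatment (color), with 1 point per sample, a bar at each mean and a line for ± SD. Arrdc3 stands above its DMSO samples under every treatment of untransduced myotubes, Mlx is highest in antimycin-treated LbNOX myoblasts at 63.8 to 71.98 CPM, and the Mlxip samples of most conditions overlap.

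Mlx, the dimerization partner, changed little in size, with called changes in myoblasts, post-mitotic cells and myotubes. In control myoblasts antimycin gave 61.4, 67.5 and 57.8 CPM against 46.6, 46.2 and 50.04 CPM with DMSO, a rise of 0.41 ± 0.08 (adjusted p = 7.01e-05). In LbNOX myoblasts it gave 71.98, 69.6 and 63.8 CPM against 46.6, 47.4 and 46.8 CPM, a rise of 0.56 ± 0.08 (adjusted p = 1.48e-06), and in mitoLbNOX myoblasts the rise was 0.27 ± 0.08 (adjusted p = 0.00792), a call lost without antimycin sample 3 (adjusted p = 0.0624) and with no count filter (adjusted p = 0.101). Antimycin thus raised Mlx where Txnip fell, where Txnip rose and where Txnip did not change by the test. Mlx fell with piericidin in LbNOX myoblasts (-0.27 ± 0.08, adjusted p = 0.0398), where Txnip fell too, a call that was lost without LbNOX piericidin sample 1 (-0.18) and without any of the 3 DMSO samples. Its piericidin responses were lower than in control myoblasts with LbNOX (-0.46 ± 0.12, adjusted p = 0.00204) and with mitoLbNOX (-0.35 ± 0.12, adjusted p = 0.0146, or 0.13 with no count filter).

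In myotubes Mlx fell with BAM15 (-0.33 ± 0.10, adjusted p = 0.0149) and with oligomycin and BAM15 (-0.35 ± 0.10, adjusted p = 0.0116), treatments in which Txnip rose. In post-mitotic cells it fell with oligomycin, where Txnip fell too, from 44.7, 44.1 and 46.2 CPM to 39.2, 37.5 and 38.9 CPM (-0.22 ± 0.07, adjusted p = 0.0212), a call lost without DMSO sample 3 or oligomycin sample 2, with no count filter and with only the groups compared. At 5% oxygen its change was -0.26 ± 0.10 (adjusted p = 0.0592), with samples at 34.7, 33.8 and 31.0 CPM below those of DMSO at 38.6, 38.0 and 45.1 CPM. Neither BAM15 call held without DMSO sample 3, at -0.25 and -0.26, and each was also lost without BAM15 sample 1 or 3 in the first case and without sample 1 of the combined treatment in the second. Mlx was 0.849 of the control myoblast level in myotubes (-0.24 ± 0.07, adjusted p = 0.00286). Of its 5 responses in post-mitotic cells and myotubes, 4 were lower than in control myoblasts, with differences of -0.26 to -0.50. These 5 terms share control myoblast libraries, and 10.1% to 22.5% of all tested genes were lower in them. The post-mitotic piericidin term (-0.31) was lost with no count filter (adjusted p = 0.188). The post-mitotic oligomycin term (-0.26, adjusted p = 0.043) was lost there (adjusted p = 0.44), with only the groups compared, with the outer-well term and in 8 of 12 sample omissions. Of the 17 Mlx calls in all comparisons, 8 were lost with no count filter.

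Mlxip, which encodes MondoA, rose in control myoblasts with piericidin (0.65 ± 0.25, adjusted p = 0.0241) and antimycin (0.83 ± 0.25, adjusted p = 0.00435). Its samples there were 7.53, 10.0 and 9.44 CPM with DMSO, 14.98, 10.7 and 16.1 CPM with piericidin and 17.3, 11.5 and 18.6 CPM with antimycin, and in each treatment sample 2 stood close to DMSO. All 3 DMSO samples were in outer wells, against 1 of 3 with piericidin and 0 of 3 with antimycin, and with a term for outer wells neither change was called, at 0.32 and 0.37. The piericidin call was also lost without DMSO sample 1 or piericidin sample 1 or 3. The other 2 calls of Mlxip, with oligomycin in GFP myotubes (0.69 ± 0.24, adjusted p = 0.0423) and in myotubes against post-mitotic cells (0.71 ± 0.23, adjusted p = 0.016), were lost with that term as well. The GFP call was also lost with only the groups compared (adjusted p = 0.143) and with the replicate block (adjusted p = 0.0667). The GFP value ranged from 0.34 to 1.13 when single samples were left out, lowest without GFP DMSO sample 1. edgeR called 0 of the 15 interaction terms for Mlxip, with 3 at an unadjusted p under 0.05 and 0 called by DESeq2.

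Other genes of the pathway were read from lists. Of the 6 alpha-arrestins, Txnip and Arrdc3 among them, 4 were tested, and in control myoblasts piericidin lowered 2, antimycin 3 and oligomycin 1 of them, and 0 rose, where 30.8%, 31.1% and 26.3% of all tested genes were lower. Arrdc1, an alpha-arrestin linked to vesicle release, fell with all 3, at -2.03, -1.37 and -1.52 on the log2 scale, and its change with piericidin in LbNOX myoblasts was -0.22 (adjusted p = 0.516). In myotubes 2 of the 4 rose with BAM15 and 2 at 5% oxygen, these being Txnip and Arrdc3, with none lower, where 13.2% and 12.3% of all tested genes were higher. The other tested members did not pass, with Arrdc1 at 0.23 and -0.07 and Arrdc2 at -0.72 and 0.45 in these comparisons.

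Of 11 genes for glucose uptake and the use of glucose 6-phosphate, 7 rose and 0 fell with BAM15 (median 0.98) and 6 rose and 1 fell at 5% oxygen (median 0.77). Over all tested genes 13.2% rose and 12.2% fell with BAM15, and 12.3% rose and 9.78% fell at 5% oxygen. Of the same 11 genes, 2 rose and 3 fell with piericidin, 2 and 3 with antimycin, and 3 and 3 with oligomycin, which called 8.99%, 12.9% and 33.3% of all tested genes. Slc2a1, the basal glucose transporter GLUT1, rose by 1.68 and 1.70, and Hk2, the hexokinase that makes glucose 6-phosphate, rose by 1.56 and 1.28. Slc2a4, the insulin-responsive transporter GLUT4, rose with BAM15 (1.32 ± 0.19) but not by the test at 5% oxygen (-0.40 ± 0.21, adjusted p = 0.327). In control myoblasts 3 of 9 rose and 5 fell with antimycin, which called 63.2% of all tested genes, with Slc2a1 and Hk2 higher by 2.58 and 3.25, and Hk2 also rose with piericidin by 2.45, where Txnip did not change by the test.

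Other reported targets of MondoA or its relative ChREBP did not move as one. The list held Klf10, Pklr, Pfkfb3, Ldha and Hk2, and 4 of the 5 were tested. In myotubes piericidin, antimycin and oligomycin each lowered 3 of them and raised 1, which was Hk2, whereas BAM15 and 5% oxygen each raised 3 and lowered 0. Over all tested genes piericidin lowered 4.84% and raised 4.15%, antimycin lowered 6.27% and raised 6.64%, and oligomycin lowered 16.4% and raised 16.9%, while BAM15 raised 13.2% and 5% oxygen 12.3%. Pfkfb3, an enzyme that speeds glycolysis, fell with the inhibitors, at -2.13, -1.84 and -1.62, and rose by 1.47 with BAM15 and 1.87 at 5% oxygen. Ldha, lactate dehydrogenase A, changed by -0.69 with piericidin, by -0.99 with oligomycin, by 0.89 with BAM15 and by 1.32 at 5% oxygen. Klf10, a transcription factor, fell in control myoblasts under piericidin (-1.57), antimycin (-1.34) and oligomycin (-0.95) and in myotubes with oligomycin (-1.09), and its differences with BAM15 (-0.10) and at 5% oxygen (0.14) did not pass. The list medians in myotubes were -0.69 (piericidin), -0.70 (antimycin), -1.04 (oligomycin), 1.18 and 1.30 with BAM15 and 5% oxygen.

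In the wider network of MYC, MAX and MLX proteins, which compete for E-boxes, 11 of 13 genes were tested. In control myoblasts 6 rose and 3 fell with piericidin, as with antimycin, against 30.9% higher and 30.8% lower over all genes with piericidin and 32.1% and 31.1% with antimycin. Myc, a growth-promoting transcription factor, rose by 2.50 with antimycin in control myoblasts but fell by 1.11 on the log2 scale in LbNOX myoblasts. Mxi1, an antagonist of MYC, fell by 1.03 with piericidin in control myoblasts and rose by 1.56 with BAM15 and 1.72 at 5% oxygen in myotubes. Of the 5 genes of the thioredoxin system, 3 rose and 1 fell in control myoblasts with piericidin and with antimycin, and 0 rose and 3 fell with BAM15 in myotubes, beside the same shares over all genes and, with BAM15, 12.2% lower. Txn1, the cytosolic thioredoxin that TXNIP binds, fell by 0.53 on the log2 scale with piericidin in control myoblasts and differed by -1.29 ± 0.06 between post-mitotic cells and control myoblasts. Of 7 ubiquitin ligases that act with alpha-arrestins, 5 rose and 0 fell with antimycin in control myoblasts, Nedd4l by 2.08, and of 7 AMPK subunits 1 rose and 3 fell, in a comparison that called 63.2% of all tested genes.

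Over condition means, the likeness of Txnip to other genes mostly followed cell state, and within states it differed from gene to gene. The condition means of Txnip lay in 2 separate ranges, myoblasts and low-serum states, so values over all 35 conditions describe mostly that step. Among 9629 genes with a mean of at least 50 counts, the 5 most like Txnip by Pearson's r of log2(CPM + 1) were Ctxn3 (0.952), Gpx3 (0.951), Cirbp (0.951), Ube2b (0.95) and Map1lc3b (0.949), and the 3 least like it were Dbf4 (-0.952), Ica1 (-0.952) and Cdca7 (-0.95). Within the 15 myotube conditions r was 0.906 for Gpx3, a secreted glutathione peroxidase, and 0.837 for Ctxn3, but within the 17 myoblast conditions it was 0.0398 and 0.139. In myotubes and myoblasts, respectively, r was 0.566 and 0.587 for Ube2b, 0.494 and 0.61 for Map1lc3b, and -0.59 and -0.61 for Dbf4. It was 0.807 and 0.37 for Cirbp, -0.857 and -0.346 for Ica1, and -0.844 and -0.192 for Cdca7. For Arrdc3 and Txnip r was 0.882 over all 35 conditions, 0.594 within myotube conditions and 0.00245 within myoblast conditions. Mlx and Txnip had r = -0.617 in myotubes and 0.30 in myoblasts, and Mlx and Arrdc3 -0.842 and -0.433. These points share libraries and control samples and carry no test. For Arrdc4 the highest value was 0.776 (Mcpt8) and the lowest -0.78 (Sh3bgrl), from counts too sparse to read further.

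**Figure D4:**
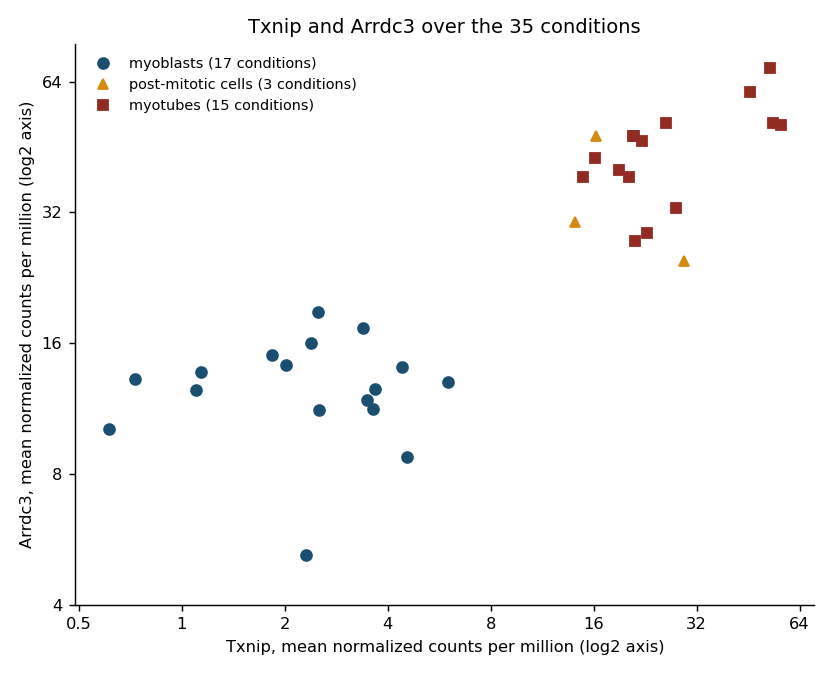
Mean CPM for Txnip (horizontal) and Arrdc3 (vertical) in each of the 35 conditions, both on log2 axes, with cell state by shape. The myoblast and low-serum conditions form 2 separate groups, and within the 17 myoblast conditions Arrdc3 shows no trend with Txnip (r = 0.00245).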

How the data were processed

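Smart-seq2 polyA libraries of the 96 samples were sequenced in paired ends on 2 flow cells. Per the labels, the authors deposited whole-number estimated counts per gene, made with kallisto 0.44 and tximport against Ensembl 93 mouse transcripts and 4 transgenes, after bcl2fastq 2.20.0.422, with flow cells summed. The libraries carry no strand, so reads of overlapping genes cannot be separated. Nothing was rounded further, since the estimated counts were already whole.

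The 5 members and the gene lists were chosen with earlier results of these data known. Samples were grouped by their labels into 35 conditions and 53 comparisons in 5 models (edgeR 4.0.16 quasi-likelihood with TMM scaling, R 4.3.3). A gene was tested where all replicates of some condition held 16 counts or more, which left 11702 to 12765 genes per model, and p-values were adjusted by Benjamini-Hochberg over all genes tested (threshold 0.05). All p-values are two-sided, and ± is 1 SE for log2 changes. This SE was taken as the absolute change divided by the square root of its F statistic, so it is approximate at low counts. Totals ranged from 6458295 to 15366745 counts, so genes near 10 counts are known only roughly. Named genes were the members, and list genes chosen after their values were seen. The alternatives were DESeq2 1.42.0 (size factors, Wald test), no count filter, only the groups compared, an outer-well term, a replicate block and each sample left out. The fits were also run on simulated data in which few genes changed, in a single group, unlike the myoblast comparisons here. No result above rests on that run. Promoter sequences came from RefSeq (GRCm38.p6) and positions from GENCODE M21, not Ensembl 93. All 5 members matched both.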

Additional observations from a re-analysis of the deposited data

Results flagged for a closer look

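Of 60 interaction terms for the 4 tested genes (15 each), 24 passed the threshold of edgeR's quasi-likelihood test with Benjamini-Hochberg adjustment, and each is a difference in response between groups on the log2 scale. They share control samples with each other, and the 15 terms called from 0% to 51.5% of all tested genes, so these counts set no gene apart. For Txnip 8 passed, in terms that called 24.9% to 51.5% of all tested genes. Its piericidin response, relative to that of control myoblasts, differed by -2.68 in LbNOX myoblasts, -1.66 in mitoLbNOX myoblasts, -1.04 in myotubes and -1.49 in post-mitotic cells. Its antimycin response differed by 3.22 in LbNOX myoblasts, 2.29 in mitoLbNOX myoblasts and 1.96 in myotubes, and its oligomycin response by -1.22 in post-mitotic cells.

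For Arrdc3 10 passed, in terms that called 17.4% to 51.5% of all tested genes. Its piericidin response differed from that of control myoblasts by 1.11 with LbNOX, 1.12 with mitoLbNOX, 1.05 with NDI1, 1.43 in myotubes and 1.30 in post-mitotic cells. Its antimycin response differed by 0.90 with LbNOX and 1.39 in myotubes, and its oligomycin response by 1.03 in myotubes and 1.25 in post-mitotic cells. In myotubes its oligomycin response at 5% oxygen differed from that at ambient oxygen by -0.74. For Mlx 6 passed, all negative, in terms that called 24.9% to 47.9% of all tested genes. Its piericidin response differed by -0.46 with LbNOX, -0.35 with mitoLbNOX, -0.38 in myotubes and -0.31 in post-mitotic cells, its antimycin response by -0.50 in myotubes and its oligomycin response by -0.26 in post-mitotic cells. Of these, the -0.35, -0.31 and -0.26 terms were lost with no count filter (adjusted p = 0.13, 0.188 and 0.44), and the -0.26 term also in 8 of 12 sample omissions.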

How the results depend on the processing

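The labels' replicate numbers did not pair the samples (mean r of same-numbered deviations -0.0481 to 0.0488), and with the replicate block 0 of 53 Txnip calls changed, while the Arrdc3 rise with chloramphenicol (0.63, adjusted p = 0.0604) and the Mlxip rise with oligomycin in GFP myotubes (0.69, adjusted p = 0.0667) were lost. DESeq2's size factors and Wald test changed 0 of 53 Txnip calls. With no count filter the Txnip calls with antimycin in LbNOX myoblasts (0.77) and with piericidin in mitoLbNOX myoblasts (-1.21) were lost, and the chloramphenicol fall in LbNOX myoblasts (-1.64) passed. With only the groups compared, Txnip lost its antimycin call in myotubes (-0.48) and its piericidin call in mitoLbNOX myoblasts (-1.20), and the difference of myotubes from post-mitotic cells (-0.36) passed. With an outer-well term the mitoLbNOX piericidin call was lost (-1.03), and the differences of myotubes from post-mitotic cells (0.0114) and with piericidin in NDI1 myoblasts (0.11), neither called, changed sign. Uncalled Arrdc3 differences changed sign for oligomycin at 5% oxygen (-0.00273 with no filter, -0.0692 with the outer-well term) and for the piericidin response of LbNOX against GFP myotubes (-0.00557 with that term). Of 17 Mlx calls, 8 were lost with no count filter, 4 with only the groups compared and 2 with the outer-well term, and 28 sample omissions ended one where 110 did not. With no count filter Arrdc3 gained calls for antimycin against oligomycin in control myoblasts (-0.49), mitoLbNOX against control (-0.63) and piericidin in GFP myotubes (0.48), the last also with DESeq2 and the outer-well term. The causes were not tested.

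Leaving out 1 sample at a time moved Txnip between 0.71 and 0.93 for LbNOX antimycin, -0.29 and 0.0344 for mitoLbNOX antimycin, -1.66 and -0.95 for mitoLbNOX piericidin, -0.63 and -0.33 for myotube antimycin, -0.13 and 0.16 for LbNOX against control, -0.32 and 0.0948 for NDI1 piericidin, -0.15 and 0.23 for piericidin against oligomycin, -1.20 and -0.83 for the myotube piericidin response, -0.17 and 0.17 for GFP oligomycin, -0.19 and 0.0619 for GFP piericidin, -0.18 and 0.0319 for LbNOX myotube oligomycin, -0.25 and 0.0726 for its response against GFP, and -0.0753 and 0.20 for the oligomycin response at 5% oxygen. Uncalled Arrdc3 values ran from -0.0455 to 0.32 and -0.0379 to 0.33 for LbNOX antimycin and piericidin, -0.11 to 0.27 for NDI1 piericidin, -0.11 to 0.12 and -0.0223 to 0.22 for oligomycin at 5% oxygen against DMSO there and against oligomycin, and -0.0513 to 0.16 for the LbNOX against GFP piericidin response.

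Counts over all genes moved by over 1.5 times in some comparisons. With no filter they were 532 against 209 (mitoLbNOX against control), 538 against 1 (NDI1 piericidin), 694 against 109 and 440 against 62 (chloramphenicol with LbNOX, and its interaction), 1347 against 839 (LbNOX myotube piericidin), and 184 against 1, 257 against 0 and 199 against 0 (LbNOX against GFP myotubes and the piericidin and oligomycin interactions). With only the groups compared they were 166 against 319 and 517 against 1063 (LbNOX against control, LbNOX piericidin), 84 against 209, 206 against 548 (NDI1 against control), 632 against 989 and 63 against 109 (chloramphenicol, control and LbNOX), 261 against 532 (oligomycin at 5% oxygen), 27 against 382 (GFP piericidin) and 290 against 479 (post-mitotic piericidin). DESeq2 gave 6 against 1, 178 against 109, 167 against 62, 16 against 1 and 2 against 0, the block 22 against 62 for the chloramphenicol interaction, and the outer-well term 2945 against 4549 and 2316 against 3702 (myotubes against post-mitotic cells, myotube oligomycin response).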
